A study of Arabidopsis thaliana with 18 samples.

Results

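The steady-state RNA of dark-grown Arabidopsis thaliana seedlings after 4 h of white light was compared with that after 0.5 h of white light. The comparison holds 6 of the 18 arrays of the series, 3 for each time, chosen by their labels, and the 3 steady-state arrays of dark seedlings served to say which transcripts had already moved by 0.5 h. All seedlings were wild-type Col-0, grown in the dark on half-strength MS agar to an age of 4 days, and only the aerial parts were collected. The dark group stayed in darkness, and the others received white light (70 to 80 µmol m-2 s-1) for 0.5 h or 4 h. The remaining arrays measured RNA taken from polysomes of seedlings treated the same way, and were used here as a second measurement of the same interval on separate arrays. The labels do not say whether both kinds of RNA came from the same seedlings. They call the replicates biological and number them 1 to 3, without saying what a number shares.

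When a dark-grown seedling meets light, phytochromes and cryptochromes are activated, the repressor COP1 and the growth-promoting PIF transcription factors lose activity, and regulators such as HY5 and its relative HYH drive light-responsive genes. The hypocotyl stops its fast elongation, the apical hook opens, and the cotyledons assemble chloroplasts. Transcripts can take part in the first wave, which may be passing or lasting, or follow only once the first regulators have been made.

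Between 0.5 h and 4 h the steady-state transcript levels parted widely. Of 15922 probe sets tested, 6764 changed, which is 42.5% (limma's moderated test with Benjamini-Hochberg adjusted p under 0.05), 3242 of them higher (20.4%) and 3522 lower (22.1%) at 4 h. A change of 2-fold or more was found for 1657 probe sets higher (10.4%) and 1248 lower (7.84%), and on a common median for 1465 higher and 1540 lower, so which direction had more 2-fold changes depends on the scaling. By contrast, 0.5 h against dark gave 409 changed probe sets (2.57%), of which 116 were 2-fold or more higher (0.729%) and 94 lower (0.59%). Those 210 are called early responses below. Log2 changes are given with the standard error (SE) of the fit, adjusted p-values are over all probe sets tested, and signals are in the linear units of the deposited table, for replicates 1, 2 and 3 in that order. Each array had been scaled to the same trimmed mean, so a signal is relative to the rest of its array, and from whole aerial parts fewer cells of a type and less RNA per cell cannot be told apart. The median change of all probe sets tested was -0.02 on the log2 scale, and the middle 90% lay between -1.26 and 1.64.

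Array medians ran from 153.9 to 205.7 over the series, the highest in a 4 h steady-state array. Replicate 3 had the highest median in every group. The shoot label was checked on the Calvin cycle list, whose 3 tested genes were all strongly detected, RCA (Rubisco activase) with dark signals of 7986, 7128 and 5912. Of 10 root markers 1 had a probe set of its own, EXPA7, and it lay below the filter on low signals; no seed storage marker had one.

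Every early response was placed by what followed. A response was said to grow where the level moved significantly further in the same direction from 0.5 h to 4 h, to decay where it moved significantly the other way, and to hold where the second step was not significant and its 95% interval lay within 1 log2 unit of 0. The rest were unresolved. Genes named by rule among growing or decaying responses had to have 0.5 h and 4 h arrays that did not overlap. For holding genes this applied to dark and 0.5 h arrays. Such separation was fixed by the choice of genes and is not a result. Of the 116 early rises, 47 grew, 37 decayed, 19 held and 13 were unresolved. Of the 94 early falls, 38 grew, 23 decayed, 24 held and 9 were unresolved. Because the 0.5 h arrays enter both steps, an early call that owes something to chance in those arrays leans toward decay by construction. The early responses were therefore also chosen in polysome RNA, which shares no array with the steady-state step, and there 93 rises (0.584% of all probe sets) and 100 falls (0.628%) met the same limits. Both kinds of RNA may come from the same seedlings, which would then share their deviations. Whether this choice removes the lean was not tested. Of these, 40 rises grew, 30 decayed and 15 held, while 43 falls grew, 21 decayed and 26 held. As many as 33 growing and 29 decaying rises, and 32 growing and 15 decaying falls, were early responses by both choices. The same steady-state second step places both sets, so these could not have been placed differently.

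**Figure D1:**
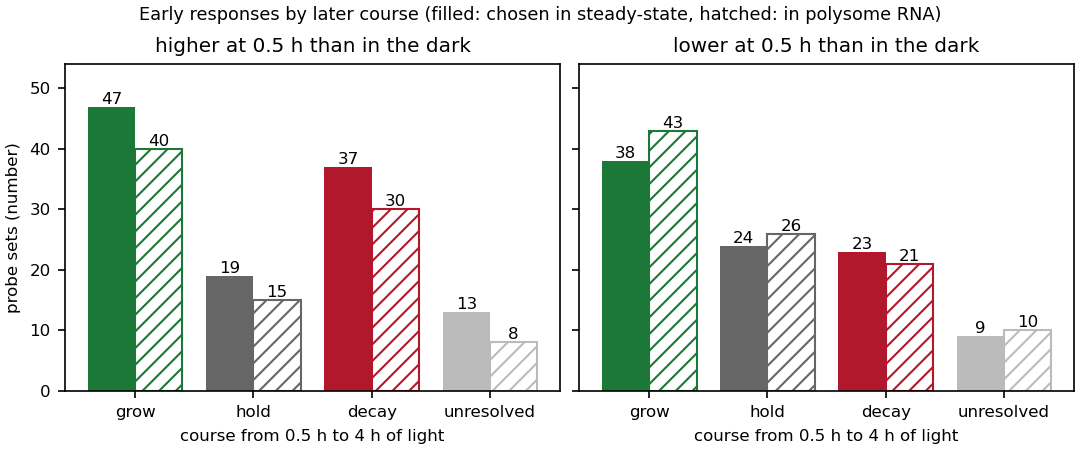
Number of early responses (vertical axis) by their course from 0.5 h to 4 h, with early rises on the left and early falls on the right. Filled bars count early responses chosen in steady-state RNA and hatched bars those chosen in polysome RNA; among rises 47 against 40 grew and 37 against 30 decayed.

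**Figure D2:**
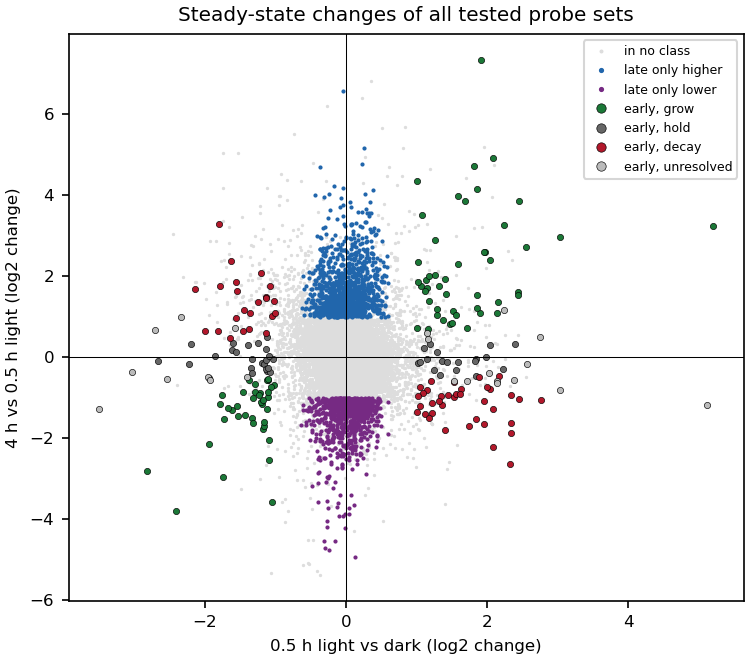
Log2 change from dark to 0.5 h (horizontal) against log2 change from 0.5 h to 4 h (vertical) in steady-state RNA, 1 dot for each of the 15922 probe sets tested. Early responses are the outlined dots left and right of the middle, and the 1154 late-only rises and 941 late-only falls form the vertical columns at the centre; both axes use the 0.5 h arrays, so the cloud's tilt is not a result.

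Rises that grew had a median log2 change of 1.87 in the second step, from 0.70 to 7.36, and the median member had covered 43.0% of its 4 h log2 change by 0.5 h. Members were chosen by both steps, so this share partly follows from the choice. In polysome RNA 46 of the 47 were also called higher at 4 h than at 0.5 h (18.3% of all probe sets were). AT3G56290 had signals of 105, 80.6 and 104 in the dark, 343, 270.1 and 257 at 0.5 h and 4043, 4999 and 4664 at 4 h. All 4 h arrays stood above all 0.5 h arrays, and these above all dark arrays. It rose by 1.59 ± 0.21 in the first step and 3.98 ± 0.21 in the second (adjusted p = 3.18e-12), a 15.8-fold increase after 0.5 h.

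UGT78D2 (AT5G17050), which adds glucose to flavonols and anthocyanidins, read 67.2, 81.8 and 108 in the dark, 462, 267 and 289 at 0.5 h and 1643, 2202 and 2264 at 4 h. The 3 groups did not overlap, and the second rise was 2.61 ± 0.22 (adjusted p = 4.76e-09). AT3G44450 encodes BIC2, an inhibitor of cryptochrome dimerisation. Its signals were 1.6, 8.5 and 45.6 in the dark, 63.5, 59.6 and 90.6 at 0.5 h and 529.7, 542 and 573 at 4 h. The dark arrays were low and scattered while the 4 h arrays lay close together. The second rise was 2.97 ± 0.67 (adjusted p = 0.00114), or 2.50 with 32 added to every signal before the log. AT3G21670, of the NRT1/PTR transporter family, read 157, 13.9 and 52.4 in the dark, 231, 111 and 149 at 0.5 h and 2447, 2149.9 and 2233 at 4 h, and here dark and 0.5 h overlapped while 4 h stood far above both. Its second rise was 3.86 ± 0.40 (adjusted p = 9.92e-08).

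In all, 16 of the 47 have a probe set that lists a single gene. Among the others, Cpn60beta2, a subunit of the chloroplast chaperonin, went from 465 to 847 in the dark through 1034 to 1756 to 6628 to 7528, a second rise of 2.35 ± 0.15. AFR, an F-box protein of phytochrome A signalling, reached 1274 to 1563 after 380.3 to 438 at 0.5 h (second rise 1.76 ± 0.24). The elongation factor 1B subunit gene AT5G12110 read 109, 224 and 158 in the dark, 241, 611 and 367 at 0.5 h and 1323, 2017 and 1425 at 4 h, with a second rise of 2.05 ± 0.23. Cytochrome c gene CYTC-2 rose least of the 16, by 0.70 ± 0.15 (adjusted p = 0.000652). AFR, CYTC-2 and Cpn60beta2 were picked out after their values were seen. The early change of AFR was under 2-fold without dark replicate 1 (0.94), and that of Cpn60beta2 without dark replicate 1 (0.91) or 0.5 h replicate 2 (0.98); the early call of Cpn60beta2 ended without the pairing.

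Without the pairing of arrays by replicate number 31 rises, not 47, counted as growing. The early call of AT3G21670 ended without dark replicate 2 or 3 or 0.5 h replicate 2 (highest adjusted p = 0.166), and that of AT3G44450 without dark replicate 1 (0.116); both also ended without the pairing (0.219 and 0.0819). The second rise of all 4 genes named first stayed called in each fit with an array left out, the highest adjusted p being 0.0116.

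Falls that grew had a median second-step change of -1.18, from -3.80 to -0.53, and the median member had covered 53.2% of its 4 h log2 change by 0.5 h. That share, too, partly follows from the choice of members. Polysome RNA was called lower at 4 h than at 0.5 h for 35 of the 38 (24.5% of all probe sets were). AT2G19660 fell from 1317, 1082 and 924 in the dark to 721, 524 and 399 at 0.5 h and 37.1, 73.7 and 32.6 at 4 h. The groups were fully separate, and the second step was -3.58 ± 0.24 (adjusted p = 1.57e-10), 11.9-fold lower. AT1G76240 read 2785, 1625 and 1581 in the dark, 1209, 716 and 848 at 0.5 h and 152, 124 and 203 at 4 h, again with no overlap, and changed by -2.53 ± 0.22 in the second step (adjusted p = 5.63e-09).

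AT5G62280 read 4873, 6155 and 6181 in the dark, 1825, 2989 and 3484 at 0.5 h and 621, 594 and 736 at 4 h, a second step of -2.04 ± 0.19 (adjusted p = 1.56e-08). AT4G35720 read 2112, 2212 and 2094 in the dark, 652, 1117 and 1194 at 0.5 h and 244, 330.3 and 324 at 4 h, a second step of -1.68 ± 0.16 (adjusted p = 2.72e-08). In both genes each light group lay wholly below the one before it. Among the other single-gene members were HAT2, an auxin-induced homeodomain-leucine zipper gene, at 1686 to 2606, 764 to 1065 and 308 to 561 in turn (second step -1.16 ± 0.15), and WAG2, a protein kinase gene related to PINOID, at 624 to 1174, 266 to 536 and 136 to 204 (-1.10 ± 0.24); these 2 were picked out after their values were seen, and the early call of WAG2 ended without dark replicate 1 (adjusted p = 0.0703) or 0.5 h replicate 3 (0.0582). The early call of AT2G19660 ended without dark replicate 1 or 2, without 0.5 h replicate 2 or 3 (highest adjusted p = 0.139) and without the pairing (0.0569), and that of AT1G76240 without dark replicate 1 (0.061). Without dark replicate 2 or 0.5 h replicate 1 the early change of AT5G62280 was under 2-fold (-0.99 and -0.89).

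**Figure D3:**
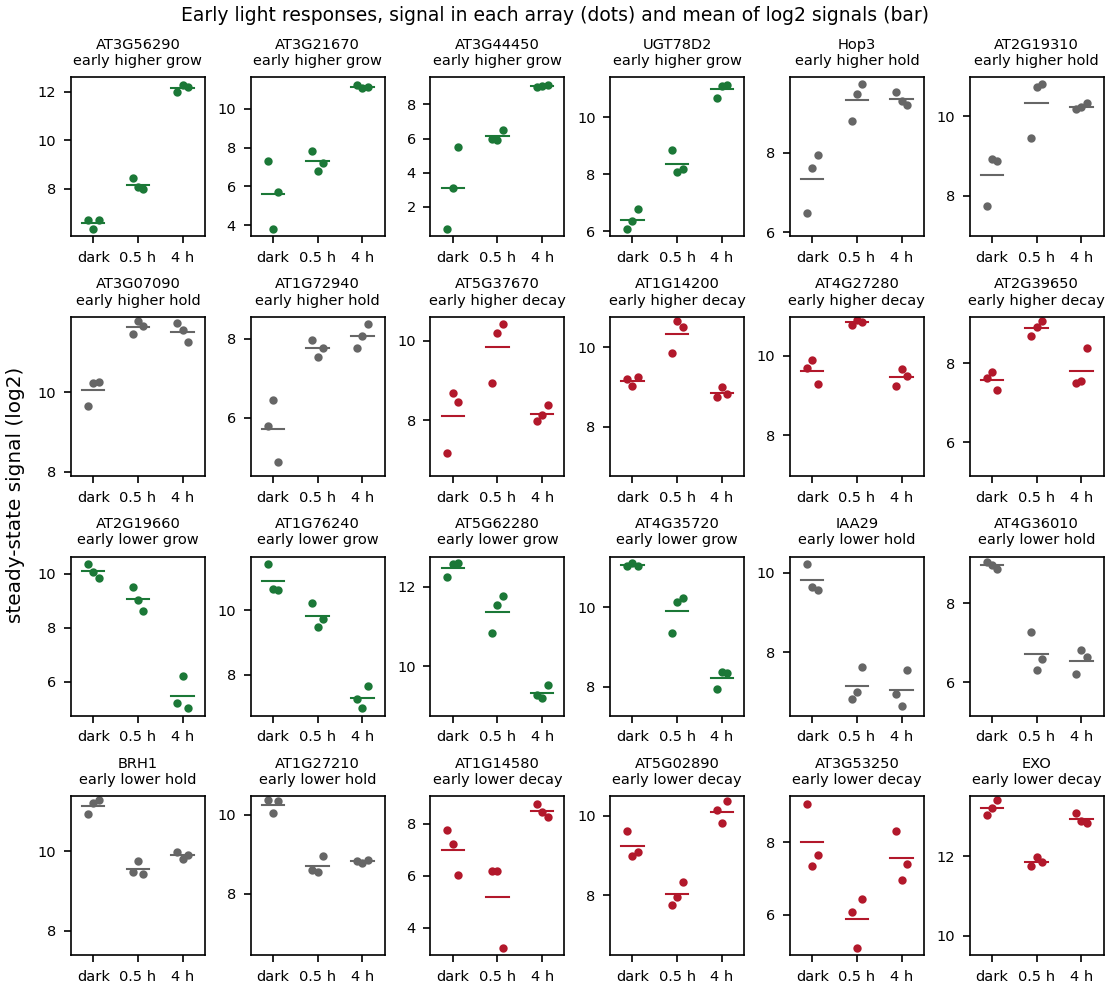
Steady-state signal on the log2 scale (vertical axis of each panel, own range) in dark, 0.5 h and 4 h arrays for the 24 early-response genes named by rule, with dots for arrays and bars for the mean of 3. Growing genes are green, holding genes grey and decaying genes red; AT3G56290 steps up at each time, IAA29 drops once and stays near that level, and EXO dips at 0.5 h and is back near its dark level at 4 h.

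Rises that decayed had a median first step of 1.57 and a median second step of -1.06, from -2.63 to -0.45. Of the 37, the 4 h level was not significantly different from dark in 21 and still significantly above it in 16 (in 4 h against dark, 20.7% of all probe sets were called higher and 21.7% lower). In polysome RNA 34 of the 37 were also called lower at 4 h than at 0.5 h (24.5% of all probe sets were). AT5G37670, a small heat shock protein gene, read 145, 409 and 351 in the dark, 486, 1176 and 1383 at 0.5 h and 251, 279 and 332 at 4 h. Both 4 h and dark arrays lay below the 0.5 h arrays, though 0.5 h replicate 1 was well under its fellows. The second step was -1.70 ± 0.22 (adjusted p = 1.71e-06), and 4 h differed from dark by 0.05 ± 0.22 (adjusted p = 0.873).

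AT1G14200, a RING-type zinc finger gene, read 583, 524 and 609 in the dark, 928, 1619 and 1444 at 0.5 h and 426, 510.5 and 451 at 4 h. The 4 h arrays were below the dark arrays as well as the 0.5 h arrays, but 4 h against dark, at -0.31 ± 0.18, did not pass (adjusted p = 0.192). Its second step was -1.49 ± 0.18 (adjusted p = 1.08e-06). AT4G27280, an EF-hand calcium-binding protein gene, read 819, 951 and 624 in the dark, 1752, 1894 and 1844 at 0.5 h and 598, 815 and 718 at 4 h, with 0.5 h arrays tightly grouped above the rest and a second step of -1.38 ± 0.19 (adjusted p = 3.85e-06). AT2G39650 read 198, 217 and 161 in the dark, 412, 483 and 538 at 0.5 h and 182, 188 and 332 at 4 h, where 4 h replicate 3 was the highest of its group but still under all 0.5 h arrays; the second step was -1.08 ± 0.23 (adjusted p = 0.000603).

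STZ (AT1G27730), a zinc-finger repressor induced by many stresses, came down only part of the way. Its signals were 32.1, 38.2 and 45.9 in the dark, 268, 269.7 and 245 at 0.5 h and 94.6, 122 and 171 at 4 h, and the 3 groups did not overlap. It fell by 1.06 on the log2 scale after 0.5 h (SE 0.27, adjusted p = 0.00311) and was still 1.71 ± 0.27 above dark. The DnaJ-type gene AT3G14200 did likewise, at 174 to 275 in the dark, 996 to 1168 at 0.5 h and 478 to 681 at 4 h, with a second step of -0.92 ± 0.22. PUB19, a U-box ubiquitin ligase gene, went from 800.4 to 1272 at 0.5 h to 415 to 644 at 4 h (-0.96 ± 0.17). The other tested member of the list of stress and touch regulators, WRKY53, changed by 0.48 ± 0.57 (adjusted p = 0.539), so the list's median of -0.29 stands for 2 genes. Without the pairing the early call of AT5G37670 ended (0.0611), and without dark replicate 2 the early change of AT1G14200 was under 2-fold (0.99). AT3G14200 and PUB19 were picked out after their values were seen.

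Falls that decayed numbered 23, with a median second step of 1.37, from 0.49 to 3.30. At 4 h the level was not significantly different from dark in 13, still below in 6 and above in 4. Polysome RNA was called higher at 4 h than at 0.5 h in 13 of the 23 (18.3% of all probe sets were). EXO (AT4G08950), EXORDIUM, a brassinosteroid-responsive gene linked to cell expansion, read 8382, 9502 and 10995 in the dark, 3438, 4025 and 3692 at 0.5 h and 8714, 7605 and 7363 at 4 h. The 0.5 h arrays lay far below both other groups, which overlapped. Its second step was 1.09 ± 0.17 (adjusted p = 2.23e-05), while in polysome RNA it was 0.39 ± 0.17 (adjusted p = 0.0695); the difference between both kinds of RNA, -0.69 ± 0.24, did not pass (adjusted p = 0.181).

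AT5G02890 fell and then passed its dark level. It read 777, 508 and 543 in the dark, 217, 248 and 323 at 0.5 h and 1124, 900.2 and 1310.5 at 4 h, with no overlap between groups, a second step of 2.09 ± 0.21 (adjusted p = 6e-08) and a 4 h level 0.88 ± 0.21 above dark (adjusted p = 0.00176). AT1G14580, a zinc-finger gene, read 216, 149 and 64.8 in the dark, 73.2, 72.2 and 9.3 at 0.5 h and 437, 353 and 308 at 4 h. The dark and 0.5 h arrays overlapped, with 0.5 h replicate 3 by far the lowest, and only the 4 h group was separate. The second step of 3.30 ± 0.43 (adjusted p = 2.07e-06) was 2.36 with 32 added. AT3G53250, of the SAUR family of auxin-induced growth genes, read 535, 160.5 and 201 in the dark, 67.6, 33.8 and 87 at 0.5 h and 316, 124 and 167 at 4 h, a second step of 1.68 ± 0.32 (adjusted p = 0.000204).

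Without replicate 1 of the 0.5 h steady-state group the early falls of 2-fold or more went from 94 to 177, those that decayed from 23 to 73, those that held from 24 to 51 and those unresolved from 9 to 14. The 54 probe sets that joined the decaying falls had a median change of -1.27 in the first step and 1.31 in the second, and -0.02 from dark to 4 h, but of -0.26 from dark to 0.5 h in polysome RNA, where 7 of the 54 were called lower (1.15% of all probe sets were called lower there). Without the pairing by replicate number the decaying falls numbered 12. The early call of AT1G14580 ended without dark replicate 1 or 2 or 0.5 h replicate 3 (highest adjusted p = 0.151) and without the pairing (0.194); that of AT3G53250 ended without the pairing (0.0883). Without dark replicate 1 the early change of AT5G02890 was under 2-fold (-0.96).

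Among the responses that held, the second step of the 19 rises ranged from -0.47 to 0.33 and that of the 24 falls from -0.51 to 0.51. Hop3 (AT4G12400), a co-chaperone that links Hsp70 and Hsp90, read 89.4, 196 and 249 in the dark, 445, 712 and 854 at 0.5 h and 739.9, 633 and 596 at 4 h. The light groups overlapped fully and lay above dark, and the second step was 0.02 ± 0.24, with a 95% interval of -0.48 to 0.51. AT2G19310 read 212, 489.5 and 470.2 in the dark, 701, 1703 and 1813 at 0.5 h and 1154, 1197 and 1288 at 4 h (second step -0.09 ± 0.20, interval -0.50 to 0.31), and AT3G07090 read 811, 1202 and 1233 in the dark, 2857, 3539 and 3255 at 0.5 h and 3460.2, 3037 and 2468 at 4 h (-0.11 ± 0.19, interval -0.51 to 0.28). In both, 0.5 h replicate 1 was the lowest of its group. AT1G72940 read 55.5, 87 and 29.8 in the dark, 251, 186 and 215 at 0.5 h and 216, 269 and 330.2 at 4 h, and its wider interval, -0.36 to 0.98, crossed 1 log2 unit without 0.5 h replicate 1 or 3, without 4 h replicate 1 or 2 and without the pairing, with upper ends of 1.07 to 1.26 when an array was left out.

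IAA29 (AT4G32280), an Aux/IAA repressor and a known target of PIF factors, kept the low level that it reached within 0.5 h. It read 1194, 799.5 and 752 in the dark, 114, 126 and 196 at 0.5 h and 124, 99.9 and 188 at 4 h. The light groups overlapped well below dark, and the second step was -0.09 ± 0.23, interval -0.57 to 0.38. AT4G36010, of the thaumatin family, read 521, 498 and 464 in the dark, 154, 79 and 96.1 at 0.5 h and 74, 112 and 99.3 at 4 h (second step -0.17 ± 0.27, interval -0.73 to 0.39, which reached -1.04 without 0.5 h replicate 2), and AT1G27210 read 1322, 1056 and 1303 in the dark, 389, 374 and 496 at 0.5 h and 457, 438 and 466 at 4 h (0.12 ± 0.16, interval -0.20 to 0.45). BRH1 (AT3G61460), a RING finger gene that brassinosteroids repress, read 1977, 2371 and 2504 in the dark, 708, 865 and 686 at 0.5 h and 1019, 898 and 958 at 4 h. All its 4 h arrays were above all 0.5 h arrays, and the second step of 0.35 ± 0.14 stood at the threshold (adjusted p = 0.0503). It passed, as a partial decay, without 0.5 h replicate 1 (0.0494) or 2 (0.0497) or 4 h replicate 2 (0.0271), and also after quantile normalization (0.0406), with the stricter filter (0.0432) and with no filter (0.0497).

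AT2G18010, of the SAUR family and the 1 tested member of the SAUR list, was unresolved: it read 326, 246 and 353 in the dark, 22.7, 62.3 and 71.5 at 0.5 h and 65.7, 51.3 and 123 at 4 h, and its second step of 0.68 ± 0.33 was not significant (adjusted p = 0.108), with an interval of -0.01 to 1.37. Without 0.5 h replicate 2 it was 1.05 and passed (adjusted p = 0.02).

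A gene was called late only where the second step was significant and 2-fold or more while the first was not significant and its 95% interval lay within 1 log2 unit of 0. This held for 1154 of the 1657 rises (7.25% of all probe sets) and 941 of the 1248 falls (5.91%), with 1016 rises and 1174 falls late only on a common median. The remaining 2-fold changes that were not early responses either, 446 rises and 264 falls, met neither definition. The median second step was 1.48 for late-only rises, up to 6.59, and -1.30 for late-only falls, down to -4.93. The members closest to the 2-fold limit were at 1.0022 and -1.0003 and the nearest called probe sets outside it at 0.99914 and -0.99999, so the limit cuts through a continuous range. In polysome RNA 1065 of the 1154 were called higher and 1 lower, and 846 of the 941 were called lower. Of all probe sets 18.3% were called higher there and 24.5% lower. With the narrower limit of 0.5 log2 unit on the first step, 357 rises and 352 falls remained late only. Late-only genes named by rule also had to have 0.5 h and 4 h arrays that did not overlap, so that separation is not a result.

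MSRB6 (AT4G04840), a methionine sulfoxide reductase that repairs oxidised protein, rose most among late-only genes named on a single-gene probe set. It read 51.2, 117 and 143 in the dark, 75, 86.4 and 119 at 0.5 h and 10296, 7834 and 8511 at 4 h. Dark and 0.5 h overlapped and 4 h stood 96.2-fold higher than 0.5 h, a second step of 6.59 ± 0.28 (adjusted p = 3.62e-13) after a first step of -0.05 ± 0.28. AT3G57020 read 70.1, 78.2 and 113 in the dark, 74.4, 119 and 121 at 0.5 h and 4619.7, 3702 and 2878 at 4 h, a second step of 5.16 ± 0.32 (adjusted p = 4.61e-11). XTH32 (AT2G36870), a xyloglucan endotransglucosylase/hydrolase gene of the cell wall, read 266, 188 and 209.9 in the dark, 204, 124 and 194 at 0.5 h and 5008, 3897 and 4349 at 4 h, and rose by 4.69 ± 0.15 (adjusted p = 7.48e-15). In both genes the dark and 0.5 h arrays overlapped, and the 4 h arrays were far above.

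AT2G36885 read 161, 122 and 194 in the dark, 154, 116 and 147 at 0.5 h and 2848, 2623 and 2399 at 4 h (second step 4.24 ± 0.23, adjusted p = 4.97e-12), and AT1G21500 read 290.0, 148 and 211 in the dark, 179.8, 203 and 128 at 0.5 h and 2843, 2415 and 2579 at 4 h (3.96 ± 0.18, adjusted p = 5.47e-13). Dark and 0.5 h were again mingled and 4 h apart. AT1G06000, a flavonol rhamnosyltransferase gene (UGT89C1), read 189, 106 and 102 in the dark, 372, 158 and 60.3 at 0.5 h and 2347, 2625 and 2578 at 4 h. The 0.5 h arrays were spread on both sides of the dark arrays, and the 4 h arrays lay close together above them. It rose by 4.04 ± 0.34 (adjusted p = 4.81e-09), but its first step, 0.27 ± 0.34 with an interval of -0.45 to 0.98, is wide, and it lost the late-only name without dark replicate 1 or 3, 0.5 h replicate 2 or 3, or 4 h replicate 2 (upper ends of the first-step interval 1.01 to 1.45). The same befell MSRB6 without dark replicate 1 (first step -0.53, lower end -1.04) and AT3G57020 without dark replicate 3 or 0.5 h replicate 1 (first steps of 0.58 in both, upper ends 1.30 and 1.29), while the second step of all 6 stayed called in every fit with an array left out (highest adjusted p = 1.86e-07).

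**Figure D4:**
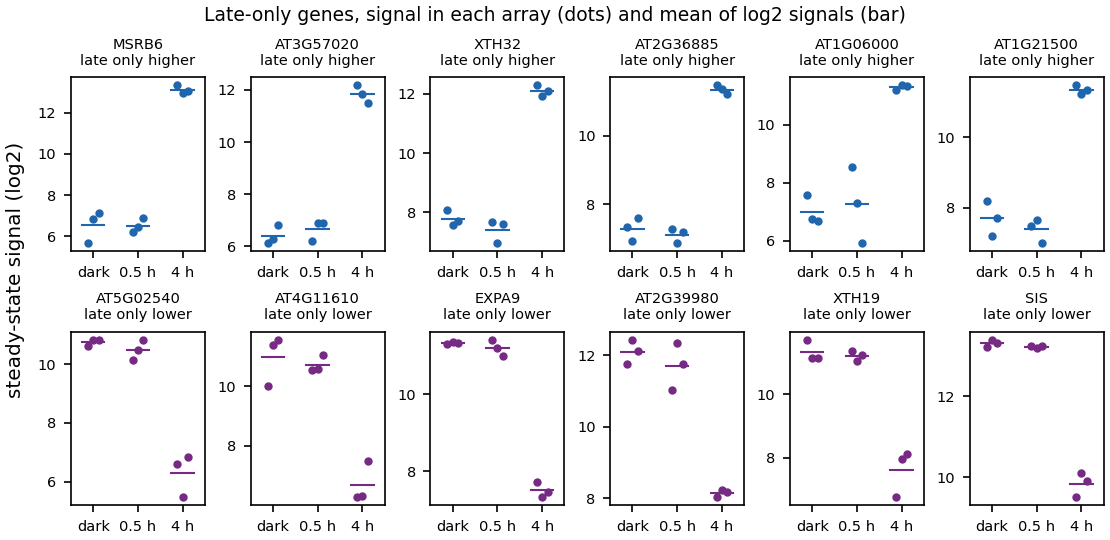
Steady-state signal on the log2 scale (vertical axis of each panel, own range) in dark, 0.5 h and 4 h arrays for the 6 late-only rises (top) and 6 late-only falls (bottom) named by rule, with dots for arrays and bars for the mean of 3. In each panel dark and 0.5 h arrays overlap and the 4 h arrays are apart from both. The rule for naming required that 0.5 h and 4 h arrays not overlap.

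Among the named late-only falls, EXPA9 (AT5G02260), an expansin, read 2510.4, 2628 and 2561 in the dark, 2726, 2337 and 2028 at 0.5 h and 213, 161 and 178 at 4 h, a second step of -3.68 ± 0.19 (adjusted p = 4.75e-12), 12.9-fold lower. XTH19 (AT4G30290) read 3346, 2229 and 2244 in the dark, 2629, 2094 and 2386 at 0.5 h and 109, 249 and 276 at 4 h, -3.59 ± 0.27 (adjusted p = 8.77e-10). In both, dark and 0.5 h were alike in range and all 4 h arrays were far lower. SIS (AT5G02020), a salt-induced serine-rich protein gene, read 9515, 10856 and 10160.1 in the dark, 9709, 9454 and 9721 at 0.5 h and 727, 1097 and 962 at 4 h, -3.39 ± 0.14 (adjusted p = 2.15e-13).

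AT5G02540 read 1586, 1824 and 1799.7 in the dark, 1137, 1434 and 1808 at 0.5 h and 96.5, 44.1 and 113 at 4 h, a second step of -4.19 ± 0.24 (adjusted p = 1.46e-11). AT4G11610 read 1035, 2681 and 3051 in the dark, 1517, 1528 and 2111 at 0.5 h and 77.2, 80.3 and 179 at 4 h, with dark replicate 1 well below its fellows, and fell by 4.04 on the log2 scale (SE 0.23, adjusted p = 8.81e-12). AT2G39980, of the acyltransferase family, read 3478, 5564 and 4422 in the dark, 2105, 5190.2 and 3470.3 at 0.5 h and 260.0, 302 and 288 at 4 h, -3.57 ± 0.21 (adjusted p = 2.64e-11). Across the 3 genes the 4 h arrays never overlapped the others. The late-only name was lost for AT4G11610 without dark replicate 1 and for AT2G39980 without dark replicate 3 or 0.5 h replicate 2 (lower ends of the first-step interval -1.02, -1.04 and -1.11).

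Gene groups were read from lists matched to probe sets that list a single gene. Of 550 listed genes 143 were tested, and 69 of these were chloroplast-encoded. Coverage of the other lists was lower. Tested were 3 of 19 listed Calvin cycle genes, 3 of 20 antenna and 5 of 32 nuclear photosystem genes. For light signalling it was 4 of 43 and for auxin 4 of 22. Each statement holds for the tested members. Over all probe sets 20.4% were called higher and 22.1% lower, with a median of -0.02. The lists were written with earlier results of these data known, so setting their counts beside these shares is not a test of enrichment. Of the 26 lists, 14 had 3 or more tested genes. All 5 tested nuclear photosystem and electron transport genes rose after 0.5 h (median 1.58) and all 5 were late only. PSBY, a small photosystem II protein, read 4529.7, 4692 and 3636 in the dark, 3749, 4424 and 3814 at 0.5 h and 15857, 15216 and 15506 at 4 h, a second step of 1.96 ± 0.13 (adjusted p = 9.57e-11). PSAN, of photosystem I, rose by 1.58 ± 0.15 and ATPC1, the gamma subunit of the chloroplast ATP synthase, by 1.40 ± 0.15; in both, no 4 h array overlapped an earlier one.

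All 3 tested Calvin cycle genes rose (median 1.91). RCA read 7986, 7128 and 5912 in the dark, 8029.5, 6767 and 5401 at 0.5 h and 26172, 24863 and 24086 at 4 h, up by 1.91 ± 0.11 (adjusted p = 1.96e-11). SBPASE (sedoheptulose-bisphosphatase) rose by 1.92 ± 0.12 and PRK (phosphoribulokinase) by 0.83 ± 0.17 (adjusted p = 0.000479). The 3 tested antenna genes, all coding for the minor antenna protein CP29, rose unequally: LHCB4.3 by 2.65 ± 0.17, from 238, 201 and 311 to 1615, 1371 and 1661, and LHCB4.1 and LHCB4.2, whose 0.5 h signals were already 13929, 11006 and 9464 for the first and 12899.5, 11838 and 9374 for the second, by 0.68 ± 0.15 and 0.64 ± 0.13 (adjusted p = 0.00106 and 0.000386). Of 4 photorespiration genes 3 rose (median of the 4, 0.99): HPR (hydroxypyruvate reductase) by 1.77 ± 0.17, AT1G11860 and AT1G32470, both of the glycine cleavage system, by 1.05 ± 0.17 and 0.93 ± 0.13. Glycerate kinase AT1G80380 was lower, at -0.66 ± 0.14 (adjusted p = 0.000485). Of 4 photoprotection genes 3 rose (median 0.99), LIL3:1 by 1.49 ± 0.13, the stromal ascorbate peroxidase SAPX by 1.25 ± 0.18 and lycopene cyclase LYC by 0.73 ± 0.13.

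Chlorophyll and tetrapyrrole synthesis split. Of 9 tested genes 6 rose, 1 fell and 2 did not pass (median 0.80). HEME1 and HEME2, uroporphyrinogen decarboxylases, rose by 1.99 ± 0.16 and 1.67 ± 0.16, and CHLI2, a subunit of magnesium chelatase, by 1.86 ± 0.16 (adjusted p = 7.46e-09). CHLI2 read 562, 378 and 361 in the dark, 424, 418 and 428 at 0.5 h and 1686, 1537 and 1415 at 4 h, with dark and 0.5 h overlapping and every 4 h array higher. PORB, a protochlorophyllide oxidoreductase, fell by 1.32 on the log2 scale (SE 0.15, adjusted p = 3e-07), and HEMA2 and AT1G74470 (geranylgeranyl reductase) were at 0.14 ± 0.23 and 0.04 ± 0.12 without passing.

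Of 69 chloroplast-encoded genes tested, 16 rose and 53 did not pass (median 0.19). That count is near the share of all probe sets called higher, 20.4%, so it does not set the list apart. The largest rises were those of psbB, psbT and psbD, which encode photosystem II proteins. psbD read 1425, 2302 and 1971 in the dark, 1247, 1704 and 1389 at 0.5 h and 4248, 6127 and 4751 at 4 h, a second step of 1.80 ± 0.19 (adjusted p = 1.09e-07). psbB read 1436, 5216 and 3778 in the dark, 1013, 3362 and 1050.2 at 0.5 h and 4446, 10603 and 5226 at 4 h, where dark and 4 h overlapped and 0.5 h replicate 2 was the highest of its group. It fell in the first step by 0.99 ± 0.26 (adjusted p = 0.0387), a call that ended in 8 alternatives, among them those without the pairing (0.70) or without dark replicate 2 (0.108) or 3 (0.276), 0.5 h replicate 1 (0.0767) or 3 (0.195) or 4 h replicate 2 (0.0507), and then rose by 2.04 ± 0.26 (adjusted p = 1.47e-06). The number called was 10 without 4 h replicate 1, 9 after scaling to a common median or with no intensity trend and 7 without the pairing by replicate number.

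Light-signalling regulators were higher for 3 of 4 tested (median 3.11). HYH (AT3G17609) read 54.6, 68.2 and 79.7 in the dark, 193, 59.9 and 142 at 0.5 h and 1006, 1013 and 1383 at 4 h, with 0.5 h arrays reaching from the dark range upward, and rose by 3.25 ± 0.28 (adjusted p = 5.89e-09) after a first step of 0.82 ± 0.28 that did not pass (adjusted p = 0.157). Without 0.5 h replicate 2 the first step was 1.26 and passed (0.0078), so that HYH would count as a growing rise. AT3G52740 (BIC1) read 3.3, 3.8 and 10.6 in the dark, 41.4, 15.3 and 16.5 at 0.5 h and 499, 599 and 693 at 4 h, a second step of 4.76 ± 0.86 (adjusted p = 0.000118), or 3.50 with 32 added. FHL, which carries phytochrome A into the nucleus with FHY1, was lower, at -1.13 ± 0.31 (adjusted p = 0.00563). The 2 tested flavonoid genes both rose, UGT78D2 as above and UGT78D1 from 78.1, 133 and 85.5 to 914, 909.6 and 973, by 3.28 ± 0.39 (adjusted p = 7.16e-07). GI, the 1 tested clock gene, went from 1708, 1049 and 562 to 2591, 1828 and 1597, where 4 h replicate 3 was below 0.5 h replicate 1, a step of 0.97 ± 0.20 (adjusted p = 0.000413).

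**Figure D5:**
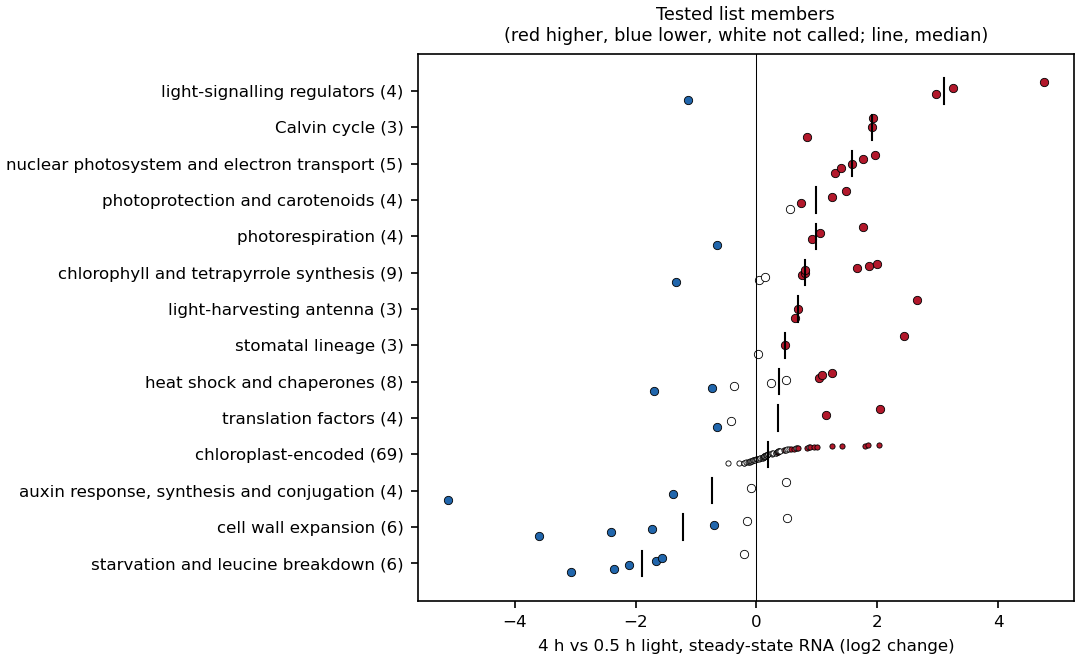
Log2 change from 0.5 h to 4 h in steady-state RNA (horizontal) of each tested member of the 14 gene lists with 3 or more tested genes, the number tested in parentheses. Red dots were called higher, blue lower and white neither, and the short line is the list's median; nuclear photosystem and Calvin cycle members lie wholly to the right, and starvation members at or left of 0.

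Of 6 tested cell wall expansion genes 4 fell and 2 did not pass (median -1.21); beside XTH19 these were XTH18 (-2.40 ± 0.26), EXPA4 (-1.72 ± 0.15) and EXPA8 (-0.69 ± 0.15), and EXPA15 and XTH33 were at 0.50 ± 0.27 and -0.15 ± 0.17. XTH18 and XTH19 are close relatives, and whether their probe sets share signal was not tested. Of the cell wall genes named above that are not on this list, XTH32 rose and EXPA9 fell. Of 4 tested auxin genes 2 fell (median -0.74). GH3.3 (AT2G23170), which conjugates auxin to amino acids, read 1443, 647 and 571 in the dark, 827, 469 and 462 at 0.5 h and 45.6, 19.6 and 4.9 at 4 h. The 4 h arrays were low, scattered and far below all others, a step of -5.11 ± 0.38 (adjusted p = 6.19e-10), or -3.50 with 32 added. WES1, also a GH3 enzyme gene, read 4558, 3725 and 3585 in the dark, 4520.3, 2978 and 1857 at 0.5 h and 1323, 1128 and 941 at 4 h and fell by 1.38 (SE 0.17, adjusted p = 9.94e-07), while YUC2, of auxin synthesis, was at 0.49 ± 0.31 and did not pass. EIN3, the 1 tested gene of the ethylene list, went from 4309, 4951 and 4495 to 2803, 2411 and 2150.3, -0.91 ± 0.14 (adjusted p = 2.35e-05).

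Starvation and leucine breakdown genes, which dark-grown tissue uses to draw energy from amino acids, fell in 5 of 6 (median -1.89), all 5 late only. MCCA, a subunit of methylcrotonoyl-CoA carboxylase, read 10366, 12964 and 12821 in the dark, 10348, 11320.4 and 10592 at 0.5 h and 1782, 1228 and 966 at 4 h, a step of -3.07 ± 0.18 (adjusted p = 2.66e-11). Its partner subunit MCCB fell by 2.36 (SE 0.20) and isovaleryl-CoA dehydrogenase IVD by 2.10 (SE 0.17). In each, dark and 0.5 h arrays overlapped and all 4 h arrays were lower. D2HGDH, at -0.20 ± 0.17, did not pass. Both tested genes of seed reserve use fell, isocitrate lyase ICL from 13877, 9381 and 8514 to 2778, 3444 and 2637 (-1.82 ± 0.16, adjusted p = 6.01e-09) and the oil-body lipase SDP1 by 0.68 (SE 0.15, adjusted p = 0.000744).

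Heat shock and chaperone genes followed several courses. Of 8 tested, 6 had been called higher at 0.5 h (1.24% of all probe sets were), and from 0.5 h to 4 h 3 rose, 2 fell and 3 did not pass (median 0.37). AT5G37670 and the DnaJ gene AT2G20560 decayed, the latter by -0.73 ± 0.26 (adjusted p = 0.025). Fes1A, a nucleotide exchange factor of Hsp70, held (0.24 ± 0.20). AT5G51440, a small heat shock protein gene, and AT5G48570 (ROF2, a peptidyl-prolyl isomerase) grew, the first by 1.09 ± 0.33 (adjusted p = 0.0101). AT5G48570 read 132, 138 and 169 in the dark, 366, 476 and 449 at 0.5 h and 1516, 694 and 648 at 4 h, where 4 h replicate 1 was more than its fellows together, and rose by 1.04 ± 0.27 (adjusted p = 0.00401).

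AT4G21870 read 822, 620.5 and 806 in the dark, 1004, 1039 and 1263 at 0.5 h and 2798, 2222 and 2837 at 4 h, and its steps were 0.56 ± 0.13 and 1.25 ± 0.13, the first under 2-fold. AT1G53540 and ATHSP22.0 were at 0.49 ± 0.32 and -0.38 ± 0.25 in the second step and did not pass. Outside the list, the cytosolic Hsp70 gene AT3G09440, picked out after its values were seen, rose from 1867 to 2095 through 4321 to 5670.0 to 8826 to 10724 (0.93 ± 0.17). Without 4 h replicate 1 the second step of AT5G48570 was 0.65 and did not pass (0.0596), the call of AT5G51440 ended without that array (0.0853) or 0.5 h replicate 1 (0.118), that of AT2G20560 without 0.5 h or 4 h replicate 2 or 3 (0.0918 to 0.145), and the early call of AT4G21870 without dark replicate 2 or 0.5 h replicate 2 or 3 (highest adjusted p = 0.107), without the pairing (0.115) or with the 9 steady-state arrays alone (0.0735). In all, 3 members rather than 5 were called in the second step without 4 h replicate 1 or without the pairing.

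Of 4 translation factors 2 rose, 1 fell and 1 did not pass (median 0.36). Besides AT5G12110, the helicase EIF4A-2 rose by 1.14 ± 0.17 (adjusted p = 1.28e-05), whereas AT5G19510, the other elongation factor 1B subunit gene tested, fell from 8511, 8548 and 7654 to 4732, 5482 and 5485, -0.66 ± 0.15 (adjusted p = 0.00109). In the stomatal lineage SPCH, the factor that starts it, read 15, 56.4 and 11 in the dark, 65, 37.8 and 16.9 at 0.5 h and 217, 231 and 135 at 4 h and rose by 2.45 ± 0.70 (adjusted p = 0.00692), STOMAGEN, a peptide that promotes stomata, by 0.47 ± 0.15 (adjusted p = 0.0175; its 0.5 h and 4 h arrays overlapped), and FMA was at 0.03 ± 0.35. The call of STOMAGEN ended without 0.5 h replicate 1 (0.0734) or 2 (0.0573), 4 h replicate 2 (0.0612), the pairing (0.259), or on a common median (0.0738). PRL, an MCM7 subunit of the replication helicase and the 1 tested cell cycle gene, rose by 0.87 ± 0.19 (adjusted p = 0.000672), and RR16, the 1 tested cytokinin response gene, was at 1.43 ± 0.60 without passing (adjusted p = 0.0595); it passed without dark replicate 1 (0.0334) or 3 (0.0435), with 32 added (0.92, adjusted p = 0.0159), with no intensity trend (0.0251) and with the 6 compared arrays alone (0.048). The lists of brassinosteroid and gibberellin genes, of nitrogen and sulfur assimilation, of root markers and of seed storage had no tested gene.

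Whether polysome RNA followed the same course was tested as the difference between the 0.5 h to 4 h change in polysome RNA and that in steady-state RNA. The difference passed for 131 probe sets (0.823%), 84 with the larger value in polysome RNA and 47 with the larger in steady-state RNA. Of the late-only rises 22 and of the late-only falls 30 were among them. Late-only genes were chosen by a large steady-state change, which this difference subtracts. That choice alone leans the difference toward smaller changes in polysome RNA. Its median SE, 0.284 against 0.201 for the change itself, limits what could be seen. For MSRB6, RCA and EXPA9 the difference was 0.23 ± 0.40, -0.08 ± 0.16 and 0.11 ± 0.28, none of which passed (lowest adjusted p = 0.848).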

How the data were processed

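The measurements are signal intensity values from 18 Affymetrix ATH1 arrays, deposited as 1 linear table of 22810 probe sets and made with MAS5 by the authors, per the submitters' processing notes; the sources used here do not give the MAS5 settings. The 2% trimmed mean was 500.04 to 500.05 in each array, so array-wide shifts are not visible. Here 64 control probe sets were removed, 915 values under 1 were set to 1, log2 was taken, and 15922 probe sets at or above the 30th percentile of mean log2 signal (geometric mean 42.1) were tested. limma 3.58.1 in R 4.3.3 fitted 6 group means with replicate number as a block on all 18 arrays, with an intensity trend in the variances (10 residual degrees of freedom); adjusted p-values are Benjamini-Hochberg.

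Equal replicate numbers deviated together in the data (correlation 0.157 to 0.405 over 9 pairs of groups, at most 0.0321 for unequal numbers), so they pair the arrays. Deviations from a group mean sum to 0, so the low values for unequal numbers partly follow from the others. The labels give no reason for the pairing. No 2 arrays shared over 0.286% of their signals. p-values measure the spread between these samples, and the number of arrays limits precision.

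Probe sets are named only where the array annotation lists 1 gene (8788 of those tested; 326 list several and 6808 none), updated through the TAIR10.1 gene table. Genes were named by largest change among non-overlapping groups of each class on the log2(signal + 32) scale, and by adjusted p within lists. The classes, members and lists were chosen with earlier results of these data known. Alternatives were other filters, scalings, array sets and interval limits, 32 added, no block, no trend, and each steady-state array left out. No polysome array was left out. Simulated data of the 4 h against 0.5 h comparison held 15922 probe sets, of which 15322 had no change. Changes of log2 0.5, 1 and 2 were given to 200 each, and 20.5%, 72.5% and 91.5% were called, with 24 false calls. In the real comparison 42.5% were called, and the Benjamini-Hochberg adjustment depends on that share. The simulated rates therefore do not give the power of the real comparison. Detection calls and promoter sequences were not used here.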

Additional observations from a re-analysis of the deposited data

Results flagged for a closer look

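The change from 0.5 h to 4 h differed between polysome and steady-state RNA for 131 probe sets (limma's test of that difference, adjusted p under 0.05), and 3 of the genes named above were among them. No alternative left out a polysome array, so how far these differences rest on single polysome arrays was not tested. STOMAGEN rose by 1.73 ± 0.15 in polysome RNA and 0.47 ± 0.15 in steady-state RNA, a difference of 1.26 ± 0.22 (adjusted p = 0.00973). Its polysome signals were 620.5, 999.8 and 634 at 0.5 h and 1907, 2707 and 2780.3 at 4 h, against 742, 1372 and 1408 and 1146, 1993 and 1676 in steady-state RNA.

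The chloroplast-encoded genes psbB and psbT, whose neighbouring loci encode photosystem II proteins, rose in steady-state RNA far more than on polysomes. The difference was -1.71 ± 0.36 for psbB (adjusted p = 0.0281) and -1.63 ± 0.36 for psbT (adjusted p = 0.0342). For psbT the steady-state signals were 452, 1814 and 1082 at 0.5 h and 2279, 4179 and 4343 at 4 h, and the polysome signals 519, 1724 and 1339 and 1024, 1306 and 1411. In steady-state RNA the 4 h arrays lay above the 0.5 h arrays, and in polysome RNA the change of 0.22 ± 0.25 did not pass (adjusted p = 0.526).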

How the results depend on the processing

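No called change of a gene named by rule turned direction under any alternative run. The balance of 2-fold changes did turn on a common median, to 1465 higher and 1540 lower (1657 and 1248 reported), as did that of late-only genes, to 1016 rises and 1174 falls (1154 and 941). The median of all probe sets, -0.02, was above 0 without 0.5 h replicate 1 (0.0055) or 4 h replicate 1 (0.0021). The counts of called probe sets stayed within 1.5 times of the reported ones in every alternative, from 5397 without the replicate block to 6942 after quantile normalization (6764 reported), and from 5788 to 6878 with an array left out. Without the replicate block 31 early rises grew, 12 early falls decayed and 14 early falls were unresolved (47, 23 and 9 with it). With no intensity trend the early calls of AT1G14580 (adjusted p = 0.106), AT2G19660 (0.0757), AT3G21670 (0.118), AT3G44450 (0.0795) and psbB (0.175) also ended, as did that of AT3G21670 with the 9 steady-state arrays alone (0.0603), that of AT1G14580 after quantile normalization (0.0528) and that of psbB with no filter (0.0531). With the limit on intervals at 0.5 log2 unit, 3 early rises and 4 early falls held, 29 of each were unresolved, and 357 rises and 352 falls were late only. Unresolved early rises numbered 13, but 5 with 32 added, 24 without the filter, 4 with the stricter filter and 8 when chosen in polysome RNA. With an array left out, early falls that held ranged from 19 to 51, those that decayed from 18 to 73 and those unresolved from 8 to 17 (the last above 1.5 times the reported count without 0.5 h replicate 1 at 14 and without 4 h replicate 1, 2 or 3 at 16, 17 and 15), while growing rises ranged from 41 to 55, decaying rises from 32 to 40, late-only rises from 1068 to 1196 and late-only falls from 860 to 1042. Of calls changed from 0.5 h to 4 h, 47.9% were higher, 40.8% on a common median (which moved the median of all probe sets to -0.11) and 45.4% after quantile normalization. For the genes named by rule and all alternatives together, 1499 values of the second step kept their call, 12 gained and 6 lost it. For the first step these were 1392, 3 and 37. Genes picked out after their values were seen are outside these counts. So are list members not named by rule, among them AT5G51440 and AT2G20560, whose lost calls are given above. The fit of the 6 compared arrays alone gave 6183 calls and no classes, since it holds no dark array. The planned promoter motif count was not run.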
